A study of Homo sapiens with 8 samples.

Results

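The 4 shRNA clones derived from HT29 were compared with uncloned HT29, and the genes described are those for which every clone lay above, or every clone lay below, both uncloned arrays. Of 6759 tested genes, 2351 met that rule. The HT29 line was established from a human colorectal cancer. The study set out to describe transcript levels after CD24, a small glycosylated surface protein anchored in the membrane by a lipid, was lowered by shRNA or bound by an antibody. RNA from 8 cell samples was hybridised to 1 Affymetrix GeneChip each, and 6 of these arrays are used here. The 2 arrays of Colo357, a pancreatic cancer line, serve for reference levels.

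The uncloned side holds HT29 left untreated and HT29 kept for 72 h with SWA11, a monoclonal antibody to CD24, at a dilution of 1:40. On the cloned side are an HT29 clone with a vector for a GFP-directed shRNA, a clone with 1 vector for a CD24-directed shRNA, and 2 clones with 2 such vectors. Each clone was measured on 1 array and is 1 line grown from selected cells. All 4 clones share a vector, an expressed shRNA and clonal growth, and none of these can be told apart from the others. Separate cultures are not stated for the arrays, and p-values therefore describe only how these samples spread, which may be partly technical.

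A line that has been cloned descends from 1 cell, so it carries whatever that cell and the selected culture carried, while an uncloned culture averages over many cells. An shRNA is a short hairpin transcript that the RNA interference machinery cuts into a small RNA, which then directs the silencing of a matching messenger RNA. A hairpin against GFP has no matching human transcript and serves as the usual control for the vector and for the hairpin itself.

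Levels are MAS5 signals, array intensities on a linear scale, and differences are on the scale log2(intensity + 10), which understates the change of dim genes. Values are listed as untreated and antibody-treated for the uncloned arrays, and as GFP, 1-vector, first 2-vector and second 2-vector clone for the clones. The gap of a gene is the distance on the log2 scale between the lowest clone and the higher uncloned array, or between the highest clone and the lower uncloned array. The spread given with a difference is limma's moderated SE from 4 clones and 2 uncloned arrays, and adjusted p-values are Benjamini-Hochberg values of that limma fit over all 6759 genes. The rule and the limma test read the same 6 values of a gene, so the test of a gene that met the rule is no independent support for its choice.

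CD24 did not meet the rule. Its mean log2 level over 6 probe sets was 11.25 and 10.84 on the uncloned arrays and 11.56 in the GFP clone. In the CD24 shRNA clones it was 8.40, 7.78 and 8.39. The 3 CD24 shRNA clones were thus 8.16-fold below the 3 other HT29 arrays, with a log2 difference of -3.03 and no overlap. The p-value was 0.1 by an exact permutation test (two-sided), the lowest possible with 20 arrangements.

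General epithelial markers were bright and several intestinal ones were dim. KRT8, KRT18, KRT19 and EPCAM, general markers of simple epithelium, had intensities from 1308 to 16578 on all 6 HT29 arrays. KRT20, a keratin of gut epithelium, read 1117 and 4015.5 on the uncloned arrays and 2761, 4016, 4723 and 4799.8 in the clones. The intestinal transcription factors CDX1 and CDX2, the intestinal cadherin CDH17, the colon antigen GPA33 and the guanylate cyclase receptor GUCY2C were all under 50 on every one of these arrays, the uncloned ones included. Of 15 colon epithelium markers, 6 were under 50 on each uncloned array and 7 to 10 in the clones, and the summed marker intensity was 40138 and 50445 on the uncloned arrays and 39168 to 44085 in the clones. Endothelial markers were under 50 for 7 of 7 genes on all 6 arrays, and leukocyte markers for 9 to 11 of 11. Liver and pancreas markers were higher in the clones, with summed intensities of 1530 and 3240.5 on the uncloned arrays and 6082 to 11786 in the clones, and 7 or 8 of 9 under 50 on each array. SERPINA1, the protease inhibitor alpha-1-antitrypsin, made up most of that sum, at 1464.8 and 3160.2 and then 9455.5, 11570, 6635.9 and 5969.9 (adjusted p = 0.0586), while ALB, APOA1, INS, GCG and PDX1 were at or under 21.8. Squamous markers summed to 407 and 1331 and then to 275.5, 432, 5933 and 1435, with 5 or 6 of 8 under 50. SPRR1A and SPRR1B, cornified envelope proteins, carried the sum of the first 2-vector clone at 2429 and 3345, while KRT5 and KRT14 were at or under 16 on all 6 arrays. Neural and endocrine markers summed to 113.9 and 170.2 and then to 169.2 to 467.6, with 9 or 10 of 10 under 50. The part of other cell types in the results was not tested.

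The deposited arrays share 1 scale, with a mean of 250.1 after 2% trimming, and their median intensity was lowest for the first 2-vector clone (32.4) and highest for the GFP clone (63.1). Across probe sets, the uncloned arrays correlated at 0.961 with each other, and the clone pairs fell into GFP with the second 2-vector clone (0.960) and the 1-vector with the first 2-vector clone (0.961). The first 2-vector clone also had a ratio of 3′ to 5′ ACTB signal of 1.77, against 1.06 to 1.17 elsewhere, and the brightest 18S ribosomal RNA signal. The part of RNA quality in the results was not tested.

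All 4 clones lay above both uncloned arrays for 1406 genes (20.8% of the tested genes) and below both for 945 (14%). Most of these separations were narrow, with a median gap of 0.37 for genes above and 0.30 for genes below. A gap of at least 1 was found for 211 genes above (3.12%) and 88 below (1.3%). The limma test called 176 genes higher (2.6%) and 56 lower (0.829%) at an adjusted p below 0.05, and 1538 genes had an unadjusted p below 0.05. All 232 called genes met the rule. The filter on low values averages over the 6 HT29 arrays, 4 of them clones. Genes dim in the clones were thus removed more readily than genes dim on the uncloned arrays. Without the filter, a gap of at least 1 was found for 252 genes above and 130 below, and limma called 153 higher and 79 lower. The median difference over all tested genes was 0.04.

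At the edge of the rule, the narrowest separations above were those of CLK3, ARIH2 and TMCC1, and FZD1, ECH1 and TRIP4 just missed it. Below, TROAP, SLC30A5 and GLB1L2 were just inside and EPN1, QTRT2 and SRP9 just outside. The gap was 0.00048 for both CLK3 and TROAP, 0.0025 for TMCC1 and for GLB1L2, and 0 for FZD1 and EPN1, whose nearest values were equal. SRP9 overlapped by the most of these, at -0.0031.

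**Figure D1:**
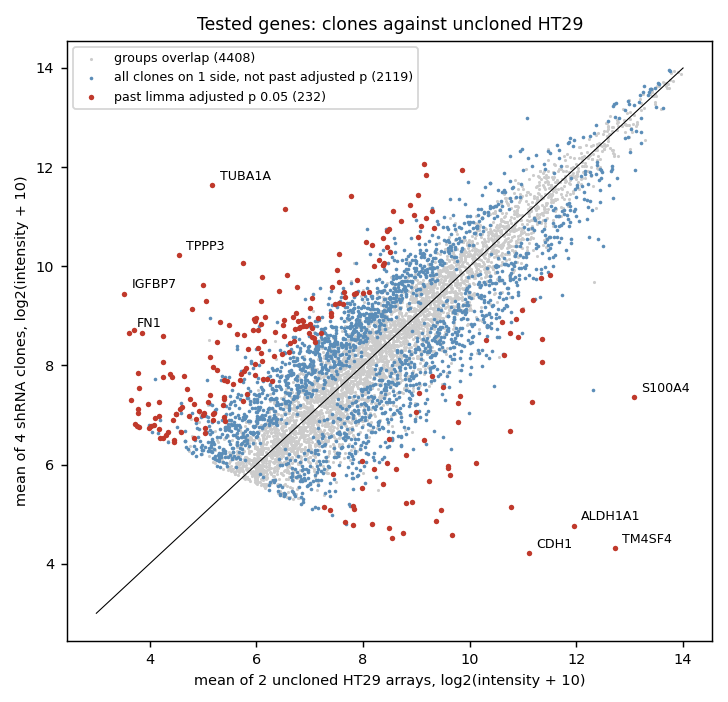
Mean of the 4 clones (y axis) against mean of the 2 uncloned HT29 arrays (x axis), both as log2(intensity + 10), for the 6759 tested genes; each point is a gene, the line marks equal levels, and the 232 genes past the limma threshold are in red. TUBA1A, TPPP3, IGFBP7 and FN1 lie far above the line, and CDH1, TM4SF4, ALDH1A1 and S100A4 far below it.

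The test leaned on the 2 uncloned arrays. Without the untreated array 26 genes were called in all, and without the antibody-treated array 14, since a single array then stood for uncloned HT29. Leaving out the GFP clone gave 492 calls. Leaving out the 1-vector clone gave 97, the first 2-vector clone 122 and the second 2-vector clone 62. In all 6 of these refits 12 genes remained called, namely IGFBP7, SEPTIN6, CD99, PADI2, FN1, FAM171A1, MTSS1, CIB2, PKIG and EEF1A2 above and KLK11 and TM4SF4 below. CDH1 was called in the 4 refits that kept both uncloned arrays and fell under the filter on low values in the other two.

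A few genes were dim on one side and bright on the other, by intensity bounds chosen after the values were seen. Intensities under 50 on both uncloned arrays and of at least 200 in all clones were found for 13 genes (0.192%): ARRB1, CD99, DRAM1, FAM171A1, FN1, FOXJ1, H2BC21, HDAC5, IGFBP7, MTSS1, SEPTIN6, TPPP3 and TUBA1A. The reverse held for 7 genes (0.104%): CDH1, DPYSL2, EPS8L3, GRAMD1B, KLK11, SLC27A5 and TRIP6. The filter removes a gene dim in the clones more readily than a gene dim on the uncloned arrays, so these counts are not on equal terms.

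**Figure D2:**
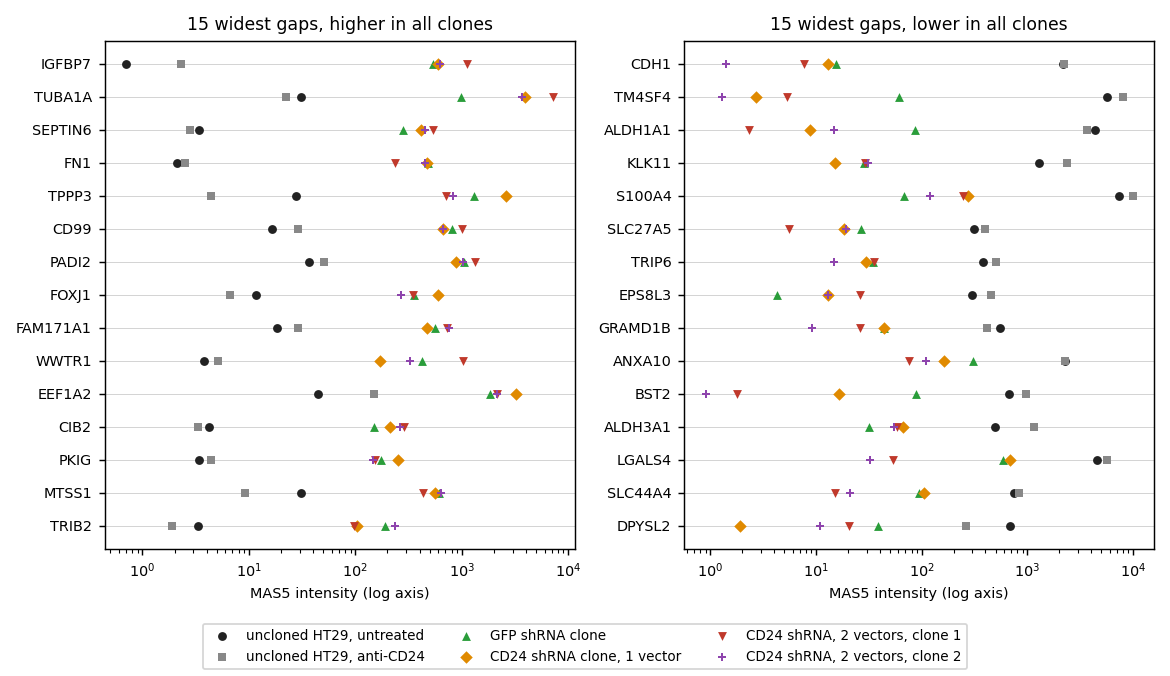
Intensity on a log axis of the 15 genes with the widest gap in each direction, 1 symbol per array: black circles and grey squares are the uncloned arrays and the other symbols the 4 clones. IGFBP7 was at 0.7 and 2.3 on the uncloned arrays and CDH1 at 1.4 to 15.4 in the clones.

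CDH1, TM4SF4 and S100A4 were among the genes with the widest gaps below. CDH1, which encodes E-cadherin, the adhesion protein of epithelial cell contacts, read 2173 and 2209.7 on the uncloned arrays. In the clones it read 15.4, 13, 7.7 and 1.4, with no clone near either uncloned array. The difference was -6.89 ± 0.39 with an adjusted p of 0.000808. CDH1 was so dim in the clones that the added 10 sets the size of the difference, which was -8.04 with a pseudocount of 1 and -5.24 with 50. The other of its 2 probe sets gave 308 and 307 against 1.4 to 7.6, and Colo357 had 1161.5 and 1349.6.

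TM4SF4, a membrane protein of the L6 family related to the tetraspanins, read 5699 and 8014.5 in uncloned HT29. Its intensity in the clones was 61, 2.7, 5.3 and 1.3, the GFP clone being the highest, a difference of -8.41 ± 0.72 (adjusted p = 0.00183). Colo357 was also low, at 7.6 and 3.9. S100A4, a calcium-binding protein linked to cell motility, fell from 7409 and 9973 to 67.5, 272, 244 and 119.6, a difference of -5.72 ± 0.55 with an adjusted p of 0.00308.

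Further genes with wide gaps below had mixed roles. KLK11, a secreted serine protease of the kallikrein family, dropped from 1286 and 2341 to 28.5, 15.2, 28.9 and 31.3 (difference -5.63, adjusted p = 0.000947). ANXA10, an annexin found in gastric epithelium, dropped from 2277 and 2285 to 302, 162.5, 75.7 and 109 (difference -3.90, adjusted p = 0.00962). BST2, an interferon-induced surface protein that tethers virions, dropped from 674.5 and 965 to 88.2, 16.5, 1.8 and 0.9 (difference -5.09, adjusted p = 0.0213). For each of these genes the highest clone was still several-fold below the lower uncloned array. The choline transporter-like gene SLC44A4 and the bile acid ligase SLC27A5 had differences of -3.84 and -3.78, with adjusted p-values of 0.0252 and 0.00421. The adaptors TRIP6, a LIM protein of focal adhesions, and EPS8L3, a microvillar actin regulator, had differences of -3.58 and -4.04 (adjusted p = 0.0041 and 0.00418). GRAMD1B, a sterol carrier at membrane contacts, and DPYSL2, a microtubule-binding protein, had differences of -3.69 and -4.13 (adjusted p = 0.00951 and 0.0136).

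Among junction genes, CDH1 was the one past the test. Of 28 tested genes for epithelial adhesion and tight junctions, 4 lay above and 6 below in all clones (14.3% above and 21.4% below, against 20.8% and 14% of all tested genes), limma called 0 higher and 1 lower (against 2.6% and 0.829% of all), and the median difference was -0.06 against 0.04 over all genes. RAB25, a small GTPase of epithelial vesicle recycling, was at 1518 and 1661 and then 4266, 4587, 3406 and 2996 (difference 1.24, adjusted p = 0.0766). EPCAM, an epithelial adhesion molecule, was at 4028 and 4068 and then 3546, 1308, 1614 and 2421 (difference -0.97, adjusted p = 0.235). Neither passed the test, and they lay on opposite sides.

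Of 15 tested genes of colonic differentiation, 3 lay above and 6 below in all clones (20% above and 40% below, against 20.8% and 14% of all tested genes). Limma called 1 higher and 2 lower (against 2.6% and 0.829% of all), and the median was -0.56. That median was -0.24 without the untreated array, -0.26 without the antibody-treated array and -0.19 without the first 2-vector clone. The clones differed, with medians of 0.36 for the GFP clone, -0.14 for the 1-vector clone and -1.53 and -0.56 for the 2-vector clones. Between the uncloned arrays, antibody-treated minus untreated, the median over these genes was 0.56. MUC13, a transmembrane mucin of the gut surface, fell with EPS8L3, from 180.4 and 422 to 24.5, 10, 19.1 and 20.6 (difference -3.36, adjusted p = 0.00847). LGALS4, an intestinal galectin, read 4581.5 and 5625.5 and then 584.5, 682, 53.6 and 32.5, and its adjusted p was 0.0663, with the 4 clones spread over 4.03 on the log2 scale. VIL1, the microvillus protein villin, read 439 and 1408 and then 105.5, 248.5, 27.9 and 25, with an adjusted p of 0.0808. Carbonic anhydrase CA2 was the member called higher, from 13.9 and 32.5 to 87.7, 119.7, 112 and 165 (adjusted p = 0.0334). DPP4 and KLF4 also lay above in all clones but did not pass (adjusted p = 0.115 and 0.165).

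IGFBP7, a secreted protein that binds insulin-like growth factors and matrix, read 0.7 and 2.3 on the uncloned arrays. Its level in the clones was 534, 595, 1119.7 and 626, a difference of 5.93 ± 0.38 with an adjusted p of 0.000947. That size too is set by the added 10, since IGFBP7 was near 0 on the uncloned arrays, and was 8.18 with a pseudocount of 1, 3.84 with 50 and 3.95 for the mean of its probe sets. Of the other two probe sets of IGFBP7, one gave 2.8 and 2.4 against 448 to 684, and one was dim on all HT29 arrays (0.9 and 1.4, then 1.4, 13.1, 1.3 and 5.1) and did not separate the clones. Colo357 had 2307 and 3665, above every clone.

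FN1, fibronectin, the matrix glycoprotein that integrins bind, went from 2.1 and 2.5 to 479.6, 472, 237 and 452.5 (difference 5.04 ± 0.38, adjusted p = 0.000956). The first 2-vector clone was the lowest and the other clones were nearly equal. Of the 6 probe sets of FN1, 5 separated all clones in that direction, and the last stayed at or under 11.3 on every HT29 array. CD99, a surface glycoprotein of leukocytes and many tumours, rose from 16.4 and 29 to 809.5, 663, 1005 and 666.5 (difference 4.61 ± 0.34, adjusted p = 0.000956). WWTR1, the Hippo pathway coactivator TAZ, rose from 3.8 and 5.1 to 420.3, 169.6, 1017 and 324 (difference 4.81, adjusted p = 0.00962). A further probe set of WWTR1 gave 16.1 and 6.1 on the uncloned arrays and 23.8 in the 1-vector clone, the lowest, so the separation was narrower there.

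These genes belong in part to a list of mesenchymal and matrix genes. Of its 22 tested members, 9 lay above and 3 below in all clones (40.9% above and 13.6% below, against 20.8% and 14% of all tested genes). Limma called 5 higher and 1 lower (against 2.6% and 0.829% of all), and the median was 0.75. TNC, the matrix protein tenascin, was among those called higher. TGFBI, a matrix protein induced by TGF-beta, rose from 515 and 633 to 4188, 1602, 5236 and 5144 (adjusted p = 0.037), and the tropomyosin TPM1 rose from 484 and 537 to 1449.6, 1446, 1502 and 1753 (adjusted p = 0.0291). CALD1, the actin-binding caldesmon, read 9.7 and 4.8 and then 665, 76, 96.1 and 316, with an adjusted p of 0.0523. On the other side, S100A4, also a member, was the 1 called lower (difference -5.72, adjusted p = 0.00308). TAGLN, an actin-binding protein of smooth muscle, read 69.7 and 122.5 and then 21.2, 36.2, 43.8 and 37.2 (adjusted p = 0.108). The collagen COL4A2 read 281 and 563 and then 51.8, 169, 224.5 and 113 (adjusted p = 0.15).

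The list also holds VIM, CDH2, ZEB1, ZEB2, SNAI1, SNAI2 and TWIST1, which failed the filter on low values and were not tested. Their highest reading on the 6 HT29 arrays was 83.3, for SNAI1 in the 1-vector clone, and the clones overlapped with the uncloned arrays for each. Of 13 fibroblast markers, 12 were under 50 on each uncloned array and 10 or 11 in each clone, with summed intensities of 221 and 233 against 309 to 503, and their part in the result was not tested.

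Among the 15 genes with the widest gap below, those with a promoter entry held fewer CpG sites than tested genes as a whole. CpG sites, the CG dinucleotides at which vertebrate DNA is methylated, were counted in the 250 bases before each gene's start in RefSeq promoters of GRCh38.p14, with CG as the motif, which reads the same on both strands. Where a gene had several promoters, the promoter with the most CG was taken. Of the 15 genes with the widest gap below, 11 had an entry, with a median of 6 CG, and 1 had at least 15. CDH1 had no entry, nor did IGFBP7, FOXJ1 and TPPP3 among the genes above. Of the 15 widest above, 10 had an entry, with a median of 26, and 7 had at least 15. Over all 5689 tested genes with an entry the median was 24 and 84.1% had at least 15, while 42.9% of all 35116 RefSeq promoters did. That last share counts every promoter and is not on the same footing as the shares by gene. Over genes with a gap of at least 1, the medians were 19 for the 68 below and 25 for the 172 above. The shares with at least 15 were 60.3% below and 77.9% above, both under the 84.1% of all tested genes. Methylation was not measured. The counts were made after the gene values were known and are a description, with no test.

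For 4 of these genes the 250 bases before the start are shown 5′ to 3′ on the gene's strand, with every CG in capitals, since they span the range from a CG-dense to a CG-poor promoter. FN1, which rose, has 32 CG (chr2:215436069-215436318, minus strand), and TUBA1A, which rose, has 11 (chr12:49189081-49189330, minus strand). ALDH1A1, which fell, has 6 (chr9:72953054-72953303, minus strand), and TM4SF4, which fell, has 4 (chr3:149474447-149474696, plus strand).
FN1: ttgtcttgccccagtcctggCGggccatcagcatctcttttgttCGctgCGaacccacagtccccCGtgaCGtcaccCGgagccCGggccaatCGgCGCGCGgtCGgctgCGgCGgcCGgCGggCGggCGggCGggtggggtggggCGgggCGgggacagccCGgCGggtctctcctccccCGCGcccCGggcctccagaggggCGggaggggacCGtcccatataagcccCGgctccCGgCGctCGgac
TUBA1A: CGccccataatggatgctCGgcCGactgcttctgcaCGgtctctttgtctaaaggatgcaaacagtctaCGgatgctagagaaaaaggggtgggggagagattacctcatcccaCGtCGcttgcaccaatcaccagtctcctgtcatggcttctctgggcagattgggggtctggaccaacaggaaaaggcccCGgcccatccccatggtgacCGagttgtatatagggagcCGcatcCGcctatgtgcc
ALDH1A1: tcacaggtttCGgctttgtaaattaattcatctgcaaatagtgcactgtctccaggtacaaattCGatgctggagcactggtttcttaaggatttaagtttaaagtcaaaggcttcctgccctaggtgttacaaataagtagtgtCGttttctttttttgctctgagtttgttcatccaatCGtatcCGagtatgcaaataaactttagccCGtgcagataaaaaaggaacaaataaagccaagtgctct
TM4SF4: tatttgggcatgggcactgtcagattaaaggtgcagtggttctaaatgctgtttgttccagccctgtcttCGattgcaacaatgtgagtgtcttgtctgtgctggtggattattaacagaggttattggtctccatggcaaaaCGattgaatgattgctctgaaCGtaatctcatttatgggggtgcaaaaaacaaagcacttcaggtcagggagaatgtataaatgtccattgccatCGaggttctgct

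Of 23 tested cytoskeletal and ciliary genes, 4 lay above and 4 below (17.4% above and 17.4% below, against 20.8% and 14% of all tested genes). Their differences were negative for 17 (73.9%, against 47.8% of all), and the median was -0.26. Limma called 2 higher and 0 lower (against 2.6% and 0.829% of all). Members and other genes of related function are named here for their place in the ranking, not for the list. TUBA1A, an alpha-tubulin of neurons and of developing tissue, rose from 30.6 and 22.2 to 973, 3928, 7247 and 3649 (difference 6.46 ± 0.71, adjusted p = 0.00472). Its GFP clone value was the lowest of the 4 but still far above both uncloned arrays, and alpha-tubulin genes are so alike that probe sets may share signal. FOXJ1, the transcription factor that drives motile cilia, rose from 11.7 and 6.6 to 358, 596, 349 and 268 (adjusted p = 0.00183). TPPP3, a tubulin-polymerizing protein, rose from 27.8 and 4.4 to 1292, 2591, 709 and 830.4 (adjusted p = 0.00421). SEPTIN6, a GTP-binding filament protein, rose from 3.4 and 2.8 to 279.6, 414, 539.7 and 452 (adjusted p = 0.000947). Its other probe sets stayed at or under 53.5 on every HT29 array. Among them, the probe set at 6.6 and 14.1 and then 28.1, 23.3, 20.4 and 14.1 did not separate the clones. IFT140, a part of the ciliary transport complex, rose less, from 11 and 6.1 to 115, 104, 69 and 54.4 (adjusted p = 0.0196). FOXJ1, TPPP3 and SEPTIN6 are outside the list.

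The other genes with the widest gaps above have mixed roles. PADI2, which converts arginine to citrulline in proteins, rose from 37 and 50.9 to 1053, 875, 1335 and 1033 (adjusted p = 0.000956). EEF1A2, an elongation factor normally expressed in neurons and muscle, rose from 44.1 and 150.4 to 1820.3, 3222, 2120.1 and 2149.6 (adjusted p = 0.00413). MTSS1, a membrane-bending actin regulator, rose from 30.6 and 9.1 to 615, 559, 427 and 642 (adjusted p = 0.00194). The clones of each of these genes lay within a 2-fold range. FAM171A1 rose by 4.24, the calcium-binding CIB2 by 4.08, PKIG, an inhibitor of protein kinase A, by 3.75, and the pseudokinase TRIB2 by 3.64, with adjusted p-values of 0.00145, 0.00183, 0.00183 and 0.00602.

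Of 33 tested genes of the NRF2 programme, in which the transcription factor NRF2 induces antioxidant and detoxifying enzymes, 17 lay below and 1 above in all clones (3.03% above and 51.5% below, against 20.8% and 14% of all tested genes). Limma called 5 lower and 0 higher (against 0.829% and 2.6% of all). Of the 33 differences, 26 were negative (78.8%, against 47.8% of all), and the median was -0.93. Without the first 2-vector clone that median was -0.61. Between the uncloned arrays, antibody-treated minus untreated, it was 0.29. ALDH3A1, an aldehyde dehydrogenase, fell from 498 and 1163 to 31.8, 66.6, 58.7 and 54.2 (difference -3.65, adjusted p = 0.00684). AKR1C1, an aldo-keto reductase that reduces steroids and reactive carbonyls, fell from 812 and 3616 to 82.2, 171, 91.3 and 56 (adjusted p = 0.0165). The antibody-treated array was the highest for AKR1C1, several-fold above the untreated one. AKR1C2 (difference -4.09, adjusted p = 0.0222) and AKR1C3 (difference -2.82, adjusted p = 0.0463) fell with it, and these near-identical genes may share probe signal. AKR1B10 fell, with a difference of -3.29 and an adjusted p of 0.0499, close to the threshold, and did not pass with a pseudocount of 1 (adjusted p = 0.0583) or without the filter (0.0680). NQO1, the quinone reductase that is the best-known NRF2 target, read 5619 and 7701 and then 2184, 3517, 2598 and 2434 (adjusted p = 0.075).

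The retinoid enzyme ALDH1A1, which oxidises retinaldehyde to retinoic acid, was among the deepest losses. It read 4320.2 and 3629 on the uncloned arrays and 86.4, 8.7, 2.3 and 14.9 in the clones, a difference of -7.19 ± 0.74 (adjusted p = 0.00413). The GFP clone kept the most, and both Colo357 arrays were brighter than any clone, at 1019 and 428.

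Genes of cell division mostly had negative differences, of which few passed the test. Of 35 tested cell cycle genes, 14 lay below and 0 above in all clones (0% above and 40% below, against 20.8% and 14% of all tested genes), 32 differences were negative (91.4%, against 47.8% of all), limma called 0, and the median was -0.76. Of 39 tested replication genes, 15 lay below and 1 above (2.56% above and 38.5% below, against 20.8% and 14% of all tested genes). Limma called 1 of them lower (against 0.829% of all), and the median was -0.72. GINS1, a subunit of the replicative helicase, was the one called, at 1128 and 1392 and then 378, 337.5, 332 and 383.5 (difference -1.78 ± 0.29, adjusted p = 0.0201). Its 4 clones were nearly identical. RRM2, which makes deoxynucleotides, read 4054 and 5697 and then 914, 1749, 1911 and 1808 (adjusted p = 0.0663). MAD2L1, a spindle checkpoint protein, read 889 and 1206 and then 387, 194, 132 and 327 (adjusted p = 0.0562). CDK1, the mitotic kinase, read 1023 and 1902 and then 515, 46.9, 86.6 and 451 (adjusted p = 0.13), with the GFP and second 2-vector clones well above the other two. No label records culture density or growth phase. Between the uncloned arrays, antibody-treated minus untreated, the median was -0.48 for the cell cycle genes and 0.15 for the replication genes.

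**Figure D3:**
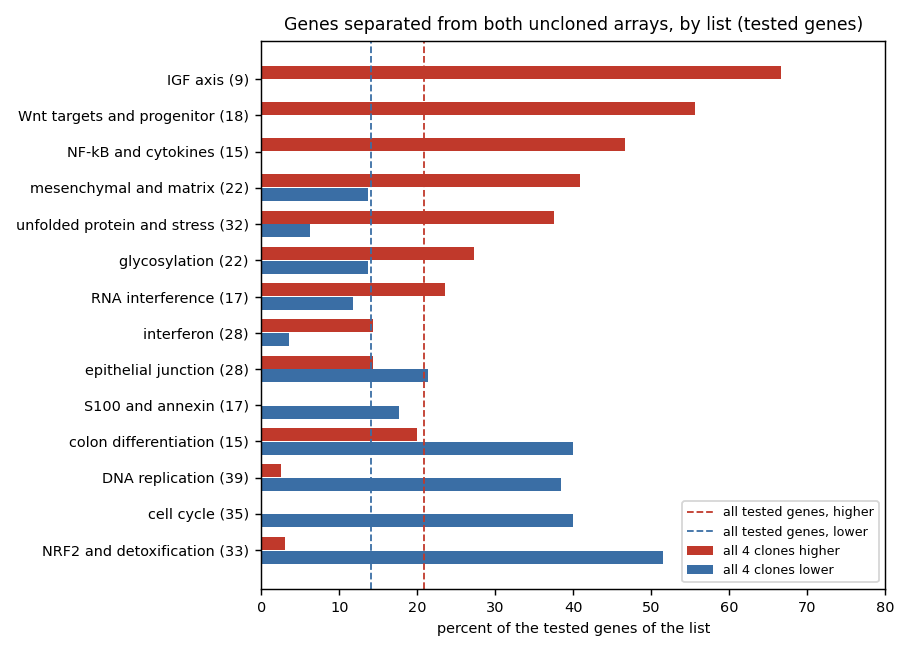
Percent of the tested genes of 14 gene lists for which all 4 clones were higher (red) or lower (blue) than both uncloned arrays, with the number of tested genes in brackets; dashed lines mark the same percentages over all tested genes, 20.8% and 14%. The NRF2, cell cycle and replication lists lie beyond the blue line and have few or no genes in red.

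Over all tested genes more lay above than below, so the lists that follow are given with their shares. Of 18 tested Wnt target and progenitor genes, 10 lay above and 0 below in all clones (55.6% above and 0% below, against 20.8% and 14% of all tested genes). Limma called 2 higher (against 2.6% of all), and the median was 0.86. That median was 0.42 without the antibody-treated array. The uncloned arrays also differed from each other over these genes, by a median of -0.61 (antibody-treated minus untreated). DKK1, a secreted inhibitor of Wnt signalling that is itself a Wnt target, rose from 206 and 211 to 5544, 2101, 1374 and 3443 (difference 3.65 ± 0.54, adjusted p = 0.0136). MMP7, the matrix protease matrilysin, rose from 227 and 599.6 to 2532, 1809.9, 2488.5 and 2075 (difference 2.54 ± 0.42, adjusted p = 0.0218). The GFP clone was the highest for both.

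Of 9 tested genes of insulin-like growth factor signalling, 6 lay above and 0 below (66.7% above and 0% below, against 20.8% and 14% of all tested genes), with a median of 1.09. IGFBP7 was the 1 that limma called, while 2.6% of all tested genes were called higher. IGF2R, the receptor that clears IGF2, read 436 and 393.5 and then 1021, 995, 759 and 825 (adjusted p = 0.0903). Of 15 tested NF-kB targets and cytokines, 7 lay above and 0 below (46.7% above and 0% below, against 20.8% and 14% of all tested genes), with a median of 0.81. IL18, an epithelial cytokine, was the 1 that passed, from 18.5 and 6.8 to 98, 68.1, 89.7 and 67.8 (adjusted p = 0.023). Between the uncloned arrays, antibody-treated minus untreated, the median was -0.53 for the insulin-like growth factor genes and 0.71 for the NF-kB list.

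Of 32 tested genes of the unfolded protein and integrated stress responses, 12 lay above and 2 below (37.5% above and 6.25% below, against 20.8% and 14% of all tested genes). Limma called 3 higher (against 2.6% of all), and the median was 0.31, or 0.54 without the untreated array. CHAC1, which degrades glutathione, rose from 46.5 and 74.5 to 206, 219, 239 and 425 (adjusted p = 0.0409). DDIT4, an inhibitor of mTORC1, rose from 351.4 and 329.5 to 2606, 2086.5, 902 and 1575 (adjusted p = 0.0406), and the stress cofactor NUPR1 rose from 14.8 and 24.7 to 152, 119, 114 and 73.2 (adjusted p = 0.0267). ATF4, a transcription factor of the integrated stress response, read 2770.1 and 1393 and then 3934, 5791.5, 5671 and 5282, with an adjusted p of 0.0903.

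RNA interference genes process hairpin RNA, and interferon genes respond to foreign RNA. Of 17 tested genes of RNA interference, 4 lay above and 2 below in all clones (23.5% above and 11.8% below, against 20.8% and 14% of all tested genes), limma called 0, and the median was 0.01. Those shares are near the background. AGO1, an Argonaute protein, read 216.5 and 177 and then 373, 328, 304 and 358.5 (adjusted p = 0.172), and TARBP2, the partner of Dicer, read 418 and 388 and then 511, 1075, 1284.5 and 817 (adjusted p = 0.169). Of 28 tested interferon-induced genes, 4 lay above and 1 below (14.3% above and 3.57% below, against 20.8% and 14% of all tested genes), and the median was 0.01. That median differed between clones: it was 1.5 in the GFP clone and -0.05 to -0.61 in the 3 CD24 shRNA clones. Between the uncloned arrays, antibody-treated minus untreated, it was 0.81. IFI27, an interferon-induced membrane protein, read 3886 in the GFP clone but only 67.1, 3.6 and 18.3 in the CD24 shRNA clones, against 209 and 885 on the uncloned arrays. BST2 was the one interferon gene that limma called, and it fell.

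Of 22 tested glycosylation genes, 6 lay above and 3 below (27.3% above and 13.6% below, against 20.8% and 14% of all tested genes), limma called 3 higher (against 2.6% of all), and the median was -0.04. The shares above and below are near the background. ST6GAL1, which adds sialic acid to N-glycans, rose from 5.5 and 17.9 to 166, 125.5, 282 and 374 (adjusted p = 0.0127). ST6GALNAC2, which caps mucin-type glycans, rose from 3.9 and 7.7 to 147, 377, 66.6 and 95.2 (adjusted p = 0.0334). GALNT6, which starts those glycans, rose from 54 and 116 to 303.5, 249, 357 and 258 (adjusted p = 0.049) and did not pass under quantile normalization (0.0549), with a pseudocount of 1 (0.0543) or without the filter (0.0582).

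Single genes of further lists passed as well. The tetraspanin TSPAN5 rose from 43.7 and 50.2 to 145, 167, 141 and 203 (adjusted p = 0.034), and HSD11B2, which inactivates cortisol, rose from 54 and 56 to 539.7, 312, 233 and 254 (adjusted p = 0.0226). FXYD3, a regulator of the sodium pump, fell from 333 and 1053.5 to 42.4, 124, 28.5 and 14.2 (adjusted p = 0.0413). KRT13, a keratin of stratified epithelium, fell from 265 and 1150.4 to 99.4, 80.2, 77 and 68.7 (adjusted p = 0.0447), and the protease inhibitor SERPINB1 fell from 1729.5 and 1388 to 682, 334, 452.5 and 443 (adjusted p = 0.0471). Of 17 tested S100 and annexin genes, 3 lay below and 0 above (0% above and 17.6% below, against 20.8% and 14% of all tested genes). Limma called 2 lower, S100A4 and ANXA10 (against 0.829% of all). The median of the 17 genes was -0.39, or -0.10 without the antibody-treated array and -0.22 without the first 2-vector clone.

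Some genes reached nearly the same level in all 4 clones. BTG1, an antiproliferative regulator, rose from 496 and 209.5 to 1542, 1543, 1547 and 1414 (difference 2.19, adjusted p = 0.0248). HOXB2, a homeobox factor, rose from 30.9 and 45.1 to 196.5, 175, 171 and 205 (difference 2.05, adjusted p = 0.0136). The zinc finger gene ZNF329 rose from 16.4 and 11.3 to 135, 123, 128 and 131 and the ankyrin ANK1 from 21.5 and 6.1 to 128, 112, 128 and 110.2 (adjusted p = 0.00495 and 0.0122). The range of the 4 clones on the log2 scale was 0.12 for ZNF329, 0.13 for BTG1, 0.20 for ANK1 and 0.25 for HOXB2. HEATR6 was as uniform but did not pass, with an adjusted p of 0.0601.

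Uniform losses were PLAC8, a cysteine-rich epithelial protein, from 196 and 242 to 23.9, 23.4, 21.8 and 27.9 (adjusted p = 0.00421), and MVP, the major vault protein, from 446 and 566 to 113.5, 125, 145 and 111 (adjusted p = 0.0162). The neuropeptide NMB and the mitochondrial channel VDAC3 fell too, with differences of -1.92 and -2.09 (adjusted p = 0.0413 and 0.016). For genes with a gap of at least 1, the 4 clones lay within a 2-fold range (1 on the log2 scale) for 131 of 211 above and 26 of 88 below, against 3302 of all 6759 tested genes. The gap and the range are read from the same clone values, so the counts describe the genes and test nothing.

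The GFP clone lay within the range of the 3 CD24 shRNA clones for 108 of 211 genes above and 39 of 88 below, against 2260 of 6759 over all tested genes. The rule had already placed the GFP clone beyond both uncloned arrays with the other clones, so these counts are a description and no test. In a limma fit with 3 groups, the CD24 shRNA clones against the GFP clone gave 0 called genes (0%), and 1032 genes had an unadjusted p below 0.05. Without the second 2-vector clone, the clone most like the GFP clone across probe sets, the same contrast called 723 genes, of which 158 met the rule. A single GFP clone gives that contrast no spread of its own. With all 4 clones in the fit, CD24 itself was not called. Its brightest probe set was at 12.85 (log2) in the GFP clone and at 9.15, 7.51 and 9.24 in the CD24 shRNA clones. The contrast thus missed a large drop in the target, and a lack of calls there does not show that the clones are alike.

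Further probe sets of these genes were read on the same 6 arrays, and only those whose mean passed the filter were counted. For genes with a gap of at least 1 there were 74 further probe sets above the filter for genes above, and 67 of them separated all clones the same way, as did 18 of 20 for genes below. None separated the other way. Dim probe sets that did not separate the clones were left out by that filter, which probe sets bright in the clones pass more readily. The share over further probe sets of all genes was not counted, so these counts are no independent support. The antibody-treated array lay nearer the clones than the untreated one for 112 of 211 genes above and 22 of 88 below, against 3532 of 6759 over all tested genes. Colo357, averaged over its arrays, lay nearer the clones than uncloned HT29 for 95 of 211 genes above and 38 of 88 below, close to the 2914 of 6759 over all.

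The share of separated genes was set out by chromosome, with the gene order of RefSeq GRCh38.p14. As a background, 20.8% of all tested genes lay above in all clones and 14% below, with a median of 0.04. On chromosome 8, 86 of 221 tested genes (38.9%) lay below in all clones and 17 above, with a median difference of -0.52. The median was negative in each clone, at -0.21, -0.76, -0.68 and -0.46, and was -0.17 for the antibody-treated against the untreated array. On chromosome 13, 37 of 112 lay below (33.0%) and 6 above, with a median of -0.40, and the 4 clones were at -0.22, -0.91, -0.85 and -0.10. The antibody-treated array was at -0.34 there, so that chromosome also moved between the uncloned arrays.

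Chromosomes 22 and 17 leaned up, against a background of 20.8% above and 14% below over all tested genes. On chromosome 22, 62 of 182 genes lay above (34.1%) and 6 below, with a median of 0.42, and on chromosome 17, 145 of 431 lay above (33.6%) and 24 below, with a median of 0.32. Chromosomes 14 and 15 had medians of 0.28 and 0.32. The clones differed on others: chromosome 4 was at 0.41 in the GFP clone and 0.04 in the second 2-vector clone but at -0.45 and -0.75 in the other two. Base composition and gene density differ between chromosomes, and their part in these medians was not tested.

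**Figure D4:**
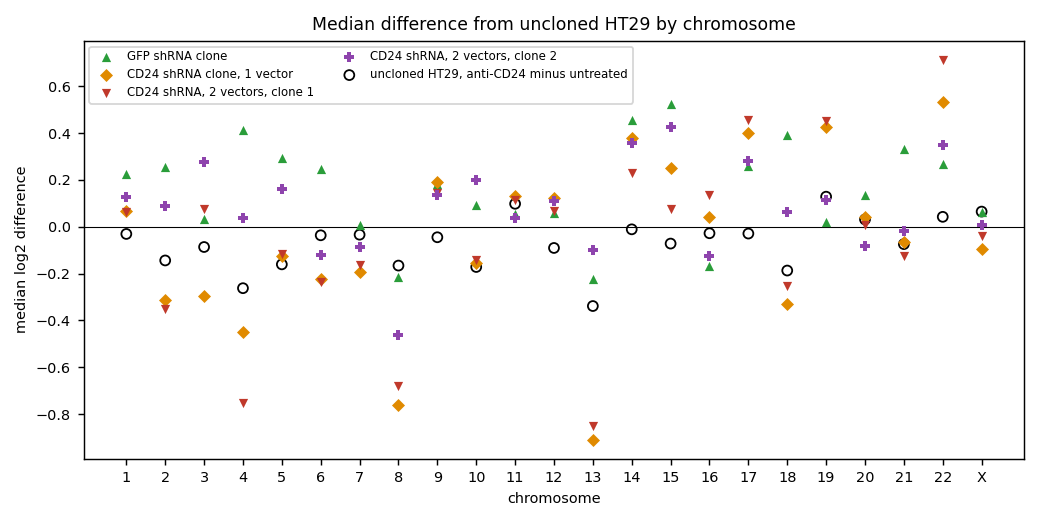
Median log2 difference from the mean of the uncloned arrays over the tested genes of each chromosome, 1 filled symbol per clone; open circles show the antibody-treated minus the untreated array. All 4 clones lie below 0 on chromosomes 8 and 13 and above 0 on chromosomes 14, 15, 17 and 22. They also lie above 0 on chromosomes 1, 9, 11, 12 and 19, and over all tested genes (0.14, 0.04, 0.04 and 0.09).

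The tested genes were cut into 268 blocks of about 25 neighbouring genes, and a block was counted where the median difference was at least 0.3 in the same direction in all 4 clones, a size chosen after the values were seen. There were 11 such blocks below and 29 above. For the antibody-treated against the untreated array, a single difference, 27 blocks were at or below -0.3 and 9 at or above 0.3.

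Of the 11 blocks below, 5 were on chromosome 8. The counts within blocks stand beside 14% below and 20.8% above over all tested genes. The block from TERF1 to PLEKHF2 had a median of -1.16, with the GFP clone at -0.31, the 1-vector clone at -1.59 and the 2-vector clones at -1.65 and -0.70. The next, from UQCRB to SLC25A32, had a median of -1.05, and 13 of its 24 genes lay below in all clones and 0 above. On chromosome 3, the block from RIOX2 to TMEM39A had 12 of 26 genes below in all clones and 0 above. In each of these blocks the 1-vector and the first 2-vector clone were the lowest.

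The 4 blocks at the end of chromosome 14, from SRSF5 to ELK2AP, had medians of 0.89, 0.57, 0.85 and 0.80, and in the block from CDC42BPB to ELK2AP the clones ranged from 0.66 to 1.04. The 3 blocks at the start of chromosome 17, from RPH3AL to PIK3R5, had medians of 0.79, 0.84 and 0.75. In the first of these, 19 of 26 genes lay above in all clones and 0 below (against 20.8% and 14% of all tested genes). The antibody-treated array differed from the untreated one by 0.02 in that block. Copy number was not measured, and whether the clones and the uncloned cells share 1 genome was not tested.

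**Figure D5:**
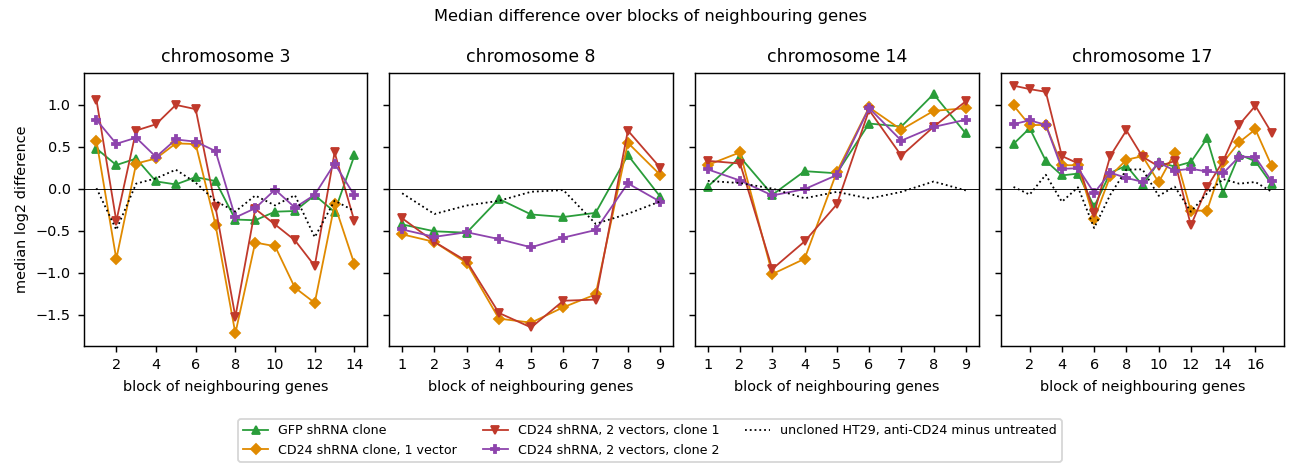
Median log2 difference from uncloned HT29 (y axis) over successive blocks of about 25 neighbouring genes (x axis, in chromosome order) for 4 chromosomes, 1 line per clone; the dotted line is the antibody-treated minus the untreated array. All clones run together above 0 over the last 4 blocks of chromosome 14 and the first 3 of chromosome 17, while on chromosome 8 the 1-vector and first 2-vector clones run below the others from block 4 to block 7.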

How the data were processed

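Probe set intensities on a linear scale were used as deposited by the authors. The submitters' processing notes name MAS5 for these signals. Each sample was hybridised to 1 Affymetrix human GeneChip, per the labels' protocols. Of 22277 probe sets, 62 are controls, and the platform annotation gave 1 symbol to 19064, several to 1043 and none to 2108. Symbols of 19052 were updated through the RefSeq table of GRCh38.p14.

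Each gene took the brightest of its probe sets with 1 symbol, by the mean over all 8 arrays, which gave 11963 genes. Values were taken as log2(intensity + 10), and 6759 genes passed a filter on low values (a mean over the 6 HT29 arrays that exceeded the median probe set, controls left out). Limma (3.58.1, R 4.3.3; lmFit and eBayes, two-sided) compared 4 clones with 2 uncloned arrays on 4 residual degrees of freedom, and a fit with 3 groups compared the CD24 shRNA clones with the GFP clone. The fit was tested on simulated data. The number of arrays limits the precision.

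The genes, the 30 gene lists and the 7 marker lists were chosen with earlier results of these data known. Of 1002 list symbols, 870 had a value. Genes named are CD24, the 15 widest gaps, 5 smallest p-values and 5 most uniform separations per direction, genes at the edge of the rule, and up to 4 separated members of a list per direction. Other members of a list are named for reference. Genes singled out for other reasons, such as those under 50 on one side, were chosen after their values were seen. Alternatives were the pseudocount, the filter, quantile normalization, the choice of probe sets, all 8 arrays in the fit, limma-trend and leaving out each array.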

Additional observations from a re-analysis of the deposited data

Results flagged for a closer look

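Among 88 named genes tested over the 4 clones, 5 had 1 clone far from the other 3, by a gap above Dixon's critical share of the whole range, and chance flags about 1 in 20 groups. FN1 was at 237 in the first 2-vector clone, against 452 to 480 in the others. TM4SF4 was at 61 in the GFP clone, against 1.3 to 5.3. KLK11 was at 15.2 in the 1-vector clone, against 28.5 to 31.3. BTG1 was at 1414 in the second 2-vector clone, against 1542 to 1547. RRM2 was at 914 in the GFP clone, against 1749 to 1911. These genes were named because they met the rule, which fixed the side of every clone, so the side of the outlying clone adds nothing.

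Outside the gene measurements, the control probe set for 18S ribosomal RNA read 434.8 on the array of the first 2-vector clone and 14.7 to 48 on the other 7 arrays. That array also had the highest ratio of 3′ to 5′ ACTB signal, at 1.77. Without it, the 4-against-2 comparison gave 90 genes higher and 32 lower in the remaining clones.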

How the results depend on the processing

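Leaving out each array in turn, the limma count ran from 12 to 292 genes higher and from 2 to 200 lower. Genes kept by the rule ran from 1469 to 2050 above and from 1038 to 1542 below. Those with a gap of at least 1 ran from 219 to 442 above and from 98 to 193 below, and with a pseudocount of 50 from 211 to 124 above. With no array left out, the limma count stayed between 146 and 219 higher and between 38 and 84 lower over 8 settings, and 169 to 218 of the 232 calls were also made in each. The contrast of CD24 shRNA clones with the GFP clone ran from 0 to 723 called genes in all and from 0 to 158 among the separated genes. CD24 on its brightest probe set differed by -3.87. List medians ran, without 1 array, from -1.07 to -0.61 for the NRF2 list, from 0.42 to 1.20 for the Wnt list, from 0.54 to 1.08 for the mesenchymal list, from 0.34 to 0.54 for the stress response list, from 0.77 to 1.12 for the NF-kB list, from -0.52 to -0.10 for the S100 list, from -0.32 to 0.10 for the glycosylation list, from -0.64 to 0.68 for the interferon list and from -0.13 to 0.03 for the junction list. KRT20 turned to -0.012 without the untreated array and was 1.82 without the antibody-treated one. Of 88 named genes, 63 were called, and 46 of these lost the call without at least 1 array and 17 under at least 1 other setting. The median over all genes stayed between 0.02 and 0.09. The medians of chromosomes 8, 13, 14, 15, 17 and 22 moved by less than the spread between clones under quantile normalization, an alternative chosen after seeing the data. No paired analysis was possible because the labels give no replicate numbers and match no clone with an uncloned array. Each uncloned condition and the GFP and 1-vector clones had 1 array, and a lone array was assumed to vary like the others.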

Other observations

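Histone, small nuclear ribonucleoprotein and HOX genes were taken as families by the start of their symbols after their values were seen, with no test of the family. Of 19 histone genes tested, 14 lay above in all clones and 2 below (73.7% and 10.5%, against 20.8% and 14% of all tested genes), limma called 9 higher (against 2.6% of all) and 0 lower, and the median difference was 2.01 against 0.04 over all tested genes. The uncloned arrays differed from each other over these genes by a median of -0.81 (antibody-treated minus untreated). H2AC6 read 110.8 and 29.4 on the uncloned arrays and 1279, 983, 585 and 771 in the clones (adjusted p = 0.0122). The linker histone H1-2 read 50.6 and 52.6 and then 403, 399, 552 and 312 (adjusted p = 0.00684). The 2 that lay below, H2AZ1 and H2AZ2, encode variants that are made throughout the cell cycle, and neither passed the test (adjusted p = 0.354 and 0.140). Near-identical histone genes can share probe signal, and 14 of the 19 were read on probe sets that may hybridise with related transcripts. The other 5 all lay above in all clones.

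Genes for the core proteins of small nuclear ribonucleoproteins and their LSM relatives, which carry out splicing and messenger RNA decay, lay on the other side. Of 22 tested, 12 lay below (54.5%, against 14% of all) and 0 above, limma called 1 lower (against 0.829%), and the median was -0.50. LSM5 was the gene called, at 1579 and 2332 and then 259, 352, 480 and 421 (adjusted p = 0.0163). HOX genes, homeobox factors of body patterning, had 5 of 9 above (55.6%, against 20.8%) and 0 below. Limma called 3 higher (against 2.6% of all), and the median was 0.90. HOXC6 rose from 194.7 and 257.7 to 597, 777, 704 and 717 (adjusted p = 0.0334).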
